A study of Mus musculus with 12 samples.

Results

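Kupffer cells are the macrophages that live in the liver sinusoids, where they take up particles, dying cells and worn erythrocytes from the blood. A set of 10 genes that these cells express strongly in the mouse was followed here in whole liver. They are *Clec4f*, *Vsig4*, *Timd4*, *Cd5l*, *Marco*, *C1qa*, *C1qb*, *C1qc*, *Il18bp* and *Cd163*, picked by gene name, and all 10 were among the 19350 genes that passed a filter on low counts, of 57180 listed. Of the 10, 7 were called higher in KO than in Het livers, beside 12.2% of all genes tested, and 0 lower, beside 10.2%. The calls of *C1qa* and *Cd5l* were lost in 19 and 13 of 25 alternative settings. *Marco* was far ahead of the others at a 7.87-fold difference.

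Livers of 12 mice were sequenced, 3 of each sex for either genotype. Every mouse was labelled Csa-/-, without the Csa gene (*Ercc8*), a factor of transcription-coupled DNA repair, and had been given as a newborn, into the brain ventricles, an AAV9 vector that carries human CSA under a ubiquitous promoter. The Het mice were Csa-/-;Xpa+/- littermates. The KO mice were sampled once they were ill, at the humane endpoint, together with Het mice of like age, and the ages of these mice in days are not given in the sources used here. For KO mice the design label gives Csa-/-;Xpa+/+ while the study describes mice without either gene, so the groups are called KO and Het as in the sample labels. *Xpa* was at 0.966 to 1.54 TPM (a relative transcript level, corrected for transcript length) in the KO livers and at 3.25 to 5.41 TPM in the Het livers, with no overlap (log2 fold change -1.83, SE 0.163, adjusted p = 4.15e-05). *Ercc8* reads were present in every liver in spite of the Csa-/- label, at 1.94 to 3.46 TPM in Het and 7.02 to 22.4 TPM in KO livers (log2 fold change 1.62, SE 0.174, adjusted p = 0.000156), so its level does not check that part of the label. Counts assigned to genes ran from 30044812 to 43634073 per liver. Genotype and illness at sampling cannot be told apart in this design, and a change in the number of Kupffer cells cannot be told apart from a change in RNA per cell in bulk liver.

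By way of background, Kupffer cells are seeded before birth and renew themselves, and their identity depends on factors such as LXRα, Spi-C and ID3 and on signals from sinusoidal endothelium and stellate cells. When they are lost, blood monocytes enter and take on most of the same genes, with *Timd4* acquired late. The members fall into 4 roles. CLEC4F and VSIG4 (a receptor for complement C3 fragments) are surface receptors largely kept to Kupffer cells in mouse liver. TIM-4 (*Timd4*, which binds phosphatidylserine on dying cells), MARCO (a scavenger receptor for bacteria and particles) and CD163 (the haptoglobin-hemoglobin receptor) are uptake receptors. CD5L, also called AIM, and the C1q chains are secreted. IL-18 binding protein is a secreted decoy that holds the cytokine IL-18 away from its receptor.

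*C1qb*, *C1qc* and *C1qa* lie in that order in 20153 bases of chromosome 4, all on the minus strand (GRCm39 with the GENCODE M39 annotation), at chr4:136606009-136613511, chr4:136616466-136620376 and chr4:136623223-136626161, each with 3 exons. *Marco* is at chr1:120402267-120432753, minus strand, with 17 exons. The 250 bases before the start of each of these 4 genes are shown, since the 3 chains moved together among the livers and *Marco* moved apart from them. The windows hold no annotated exon and are given 5′ to 3′ on the gene's strand. Capitals mark matches to any of 4 motifs searched on both strands, namely AGGAAGT (a PU.1 core), TGCTGAC (a MAF site), CACGTG (the E-box of MITF and TFE factors) and GAAANNGAA (an IRF element).
C1qa: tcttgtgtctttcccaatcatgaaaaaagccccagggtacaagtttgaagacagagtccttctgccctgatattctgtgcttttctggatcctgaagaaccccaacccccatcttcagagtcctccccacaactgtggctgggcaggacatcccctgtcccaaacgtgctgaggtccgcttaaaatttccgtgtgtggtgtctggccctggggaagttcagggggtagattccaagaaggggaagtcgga
C1qb: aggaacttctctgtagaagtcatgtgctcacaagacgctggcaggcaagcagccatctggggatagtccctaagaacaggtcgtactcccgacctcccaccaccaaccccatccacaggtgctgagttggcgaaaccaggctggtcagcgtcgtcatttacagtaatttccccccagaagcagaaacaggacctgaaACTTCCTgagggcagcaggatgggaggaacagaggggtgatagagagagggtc
C1qc: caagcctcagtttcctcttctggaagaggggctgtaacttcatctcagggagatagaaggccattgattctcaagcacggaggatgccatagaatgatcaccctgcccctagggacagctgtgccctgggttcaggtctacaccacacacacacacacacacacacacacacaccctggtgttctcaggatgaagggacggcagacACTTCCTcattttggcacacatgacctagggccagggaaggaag
Marco: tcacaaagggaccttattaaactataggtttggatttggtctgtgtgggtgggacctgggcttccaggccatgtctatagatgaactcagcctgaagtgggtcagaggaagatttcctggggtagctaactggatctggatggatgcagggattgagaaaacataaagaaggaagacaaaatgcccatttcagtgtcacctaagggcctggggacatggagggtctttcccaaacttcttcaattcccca
These windows are chr4:136626162-136626411 for *C1qa*, chr4:136613512-136613761 for *C1qb*, chr4:136620377-136620626 for *C1qc* and chr1:120432754-120433003 for *Marco*. The PU.1 core stood on the opposite strand 53 bases before the start of *C1qb* and 44 bases before that of *C1qc*, and these letters are not in the windows of *C1qa* or *Marco*. Of the same windows of 21770 protein-coding genes, 7.12% held this core, 3.24% the MAF site, 6.26% the E-box and 7.55% the IRF element. Among the other members only *Timd4* held any of the 4, a MAF site and an IRF element. A match is a description of the letters and says nothing of binding.

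*Clec4f* was the most abundant member in Het livers, at 24.3 ± 9.28 TPM (mean ± SD, n = 6), followed by *Cd5l* at 22.7 ± 10.4, *C1qa* at 19.7 ± 9.56, *C1qb* at 17.1 ± 7.98 and *C1qc* at 16.03 ± 6.94 TPM. *Vsig4* came next at 8.07 ± 4.003 TPM, then *Il18bp* at 4.55 ± 1.64, *Marco* at 4.14 ± 4.68, *Cd163* at 2.74 ± 0.927 and *Timd4* at 1.52 ± 0.952 TPM. Each gap between neighbours in this order was smaller than the larger of their SDs, except those from *C1qc* to *Vsig4* and from *Cd163* to *Timd4*. In KO livers *Marco* stood at 24.5 ± 14.9 TPM, next below the C1q chains, of which *C1qc* was lowest at 27.1 ± 8.66 TPM, while *Timd4* (1.23 ± 0.545 TPM) and *Cd163* (2.93 ± 0.905 TPM) remained lowest.

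**Figure D1:**
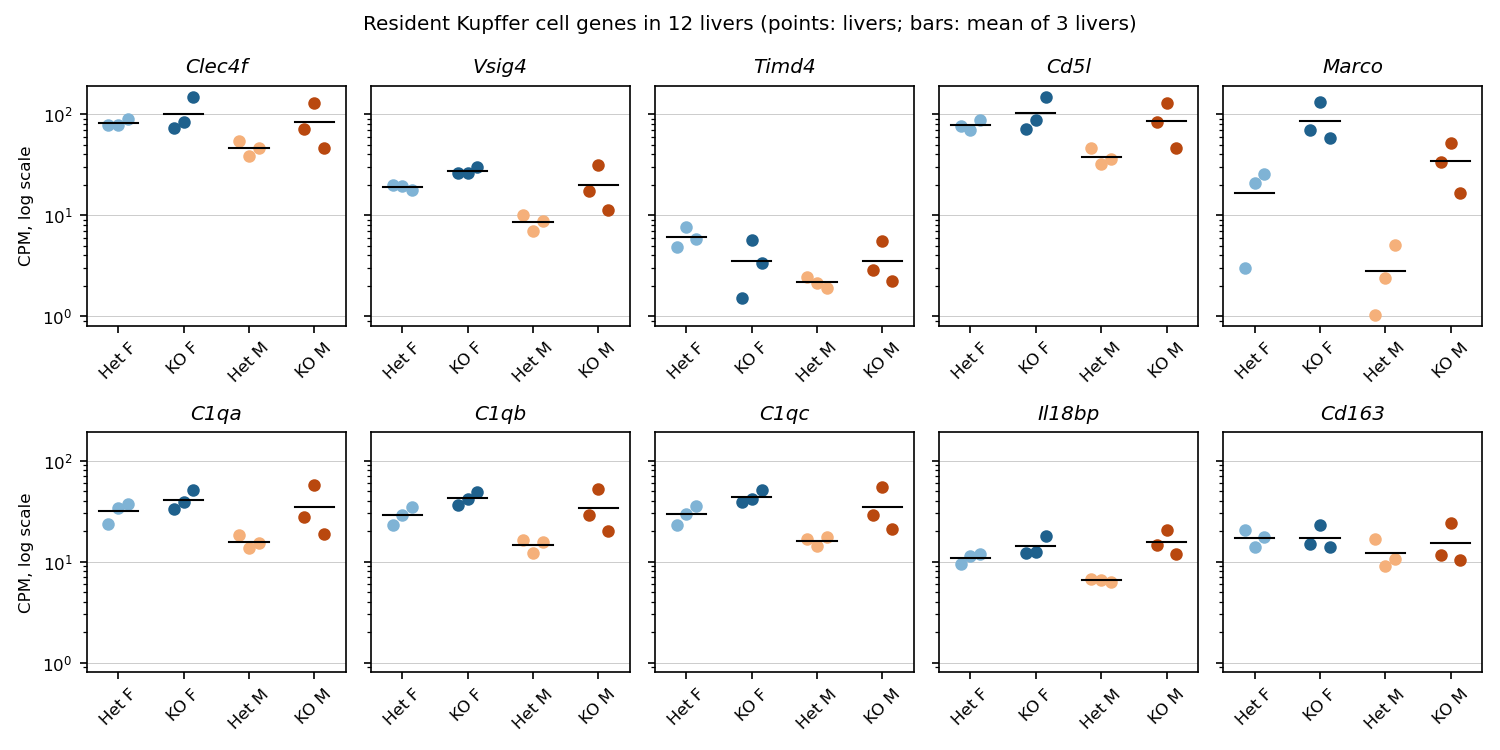
CPM (counts relative to the TMM-scaled library size, log axis) of each member in each liver, by genotype and sex, with a bar at the mean of the 3 livers of a group. *Marco* showed the widest gap between KO and Het livers, and Het males were lowest for most members.

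Whether the genotypes differ was asked of each gene with a mean for each group of 3 livers, averaged over the sexes (edgeR quasi-likelihood test, Benjamini-Hochberg adjustment over all genes, called at an adjusted p under 0.05). Of 10 members 7 were called higher, beside 12.2% of all genes tested, and 0 were called lower, beside 10.2%. The members were chosen with earlier results of these data known and in part varied together, so their calls are not separate observations. The median log2 fold change was 0.81 over the members and 0.02 over all genes. In the order of their p the called members were *Il18bp*, *Marco*, *Vsig4*, *C1qb*, *C1qc*, *Cd5l* and *C1qa*, and *Clec4f*, *Cd163* and *Timd4* were not called. The calls of 5 members held under all 25 alternative settings, whereas that of *C1qa* (adjusted p = 0.0498) was lost in 19 and that of *Cd5l* in 13.

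Values per liver are given below in CPM after TMM scaling, the scale on which genotypes were tested. Among the uptake receptors, *Marco* was at 2.99, 20.7 and 25.7 CPM in Het females Het_F_111, Het_F_115 and Het_F_126 and at 69.5, 131 and 57.5 CPM in KO females KO_F_108, KO_F_112 and KO_F_123. The Het males Het_M_119, Het_M_125 and Het_M_137 held 1.03, 2.37 and 5.02 CPM, and the KO males KO_M_118, KO_M_122 and KO_M_136 held 33.5, 52.3 and 16.7 CPM. The livers keep this order in every list of values that follows. Within each sex the lowest KO liver was above the highest Het liver, and the genotypes overlapped only in that KO_M_136 was below 2 Het females. The log2 fold change was 2.98 (SE 0.571, adjusted p = 0.00618), or 7.87-fold with a 95% interval of 3.25 to 19.1. Het livers were themselves spread widely, over a range from 31 to 1191 reads.

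*Timd4* did not share this. It was at 4.87, 7.68 and 5.74 CPM in Het females and at 1.52, 5.70 and 3.32 CPM in KO females. In males it was at 2.47, 2.11 and 1.92 CPM in Het and at 2.85, 5.57 and 2.23 CPM in KO. Thus 2 of 3 KO females lay below every Het female and 2 of 3 KO males above every Het male, with log2 fold changes of -0.79 (SE 0.419, adjusted p = 0.236) and 0.70 (SE 0.430, adjusted p = 0.359). The difference between these effects was 1.48 (SE 0.601, unadjusted p = 0.0297, adjusted p = 0.492), so it did not pass the test over all genes. Averaged over the sexes the log2 fold change was -0.05 (SE 0.320), with a 95% interval of 0.597-fold to 1.57-fold. KO_F_108 held 49 reads of *Timd4*, the fewest of the 12 livers.

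*Cd163* was at 20.4, 13.8 and 17.6 CPM in Het females, 15.03, 23.1 and 13.9 CPM in KO females, 16.9, 9.07 and 10.7 CPM in Het males and 11.7, 24.0 and 10.4 CPM in KO males. The groups overlapped throughout. Its log2 fold change was 0.17 (SE 0.238, adjusted p = 0.655), with a 95% interval of 0.782-fold to 1.61-fold.

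Of the receptors largely kept to Kupffer cells, *Vsig4* rose by 0.87 on the log2 scale (SE 0.199, adjusted p = 0.0103). Het females held 19.7, 19.7 and 17.8 CPM and KO females 26.0, 26.4 and 30.2 CPM. Het males held 10.1, 6.99 and 8.73 CPM and KO males 17.5, 31.1 and 11.3 CPM. Within each sex the genotypes did not overlap, while KO_M_118 and KO_M_136 were both below every Het female. *Clec4f* was at 78.1, 78.7 and 90.0 CPM in Het females and at 72.4, 83.2 and 147 CPM in KO females. It was at 54.3, 38.3 and 45.9 CPM in Het males and at 71.6, 130 and 46.5 CPM in KO males. Only KO_F_123 and KO_M_122 exceeded every Het liver, and the log2 fold change of 0.57 (SE 0.244, unadjusted p = 0.0398, adjusted p = 0.118) was not called. Its log2 fold change was 0.32 (adjusted p = 0.262) without KO_M_122, 0.37 (adjusted p = 0.256) without KO_F_123 and 0.14 (adjusted p = 0.526) without both, whereas without KO_M_136 it was 0.70 and called (adjusted p = 0.0406).

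Both secreted proteins outside the C1q complex were called. *Il18bp* was at 9.52, 11.3 and 11.8 CPM in Het females, 12.2, 12.5 and 17.8 CPM in KO females, 6.74, 6.57 and 6.27 CPM in Het males and 14.5, 20.6 and 12.0 CPM in KO males. It was the 1 member for which every KO liver exceeded every Het liver, an order that 4.72% of all genes showed. On the TPM scale this separation was lost, since KO_F_112 stood at 6.11 and Het_F_126 at 6.36 TPM. The log2 fold change was 0.82 (SE 0.146, adjusted p = 0.00279), with a 95% interval of 1.42-fold to 2.20-fold. *Il18bp* shares 25899 bases of chromosome 7 with *Numa1* on the other strand, and *Numa1* itself did not pass the test (log2 fold change 0.00, SE 0.107, adjusted p = 0.987). *C1qb*, *C1qc* and *Cd163* also overlap genes of long noncoding RNA on the other strand, by 6675, 474 and 16999 bases. *Cd5l* ranged from 69.2 to 87.9 CPM in Het females and from 72.0 to 148 CPM in KO females, which overlapped, and from 32.0 to 45.9 CPM in Het males and from 46.7 to 130 CPM in KO males, which did not. Its log2 fold change of 0.79 (SE 0.242, adjusted p = 0.0379) became 0.60 (adjusted p = 0.0777) without KO_F_123, 0.58 (adjusted p = 0.0749) without KO_M_122 and 0.40 (adjusted p = 0.121) without both. The adjusted p was also above 0.05, at 0.0568 to 0.0874, without any 1 of Het_F_111, Het_F_115, Het_F_126, Het_M_125, Het_M_137 and KO_M_118.

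**Figure D2:**
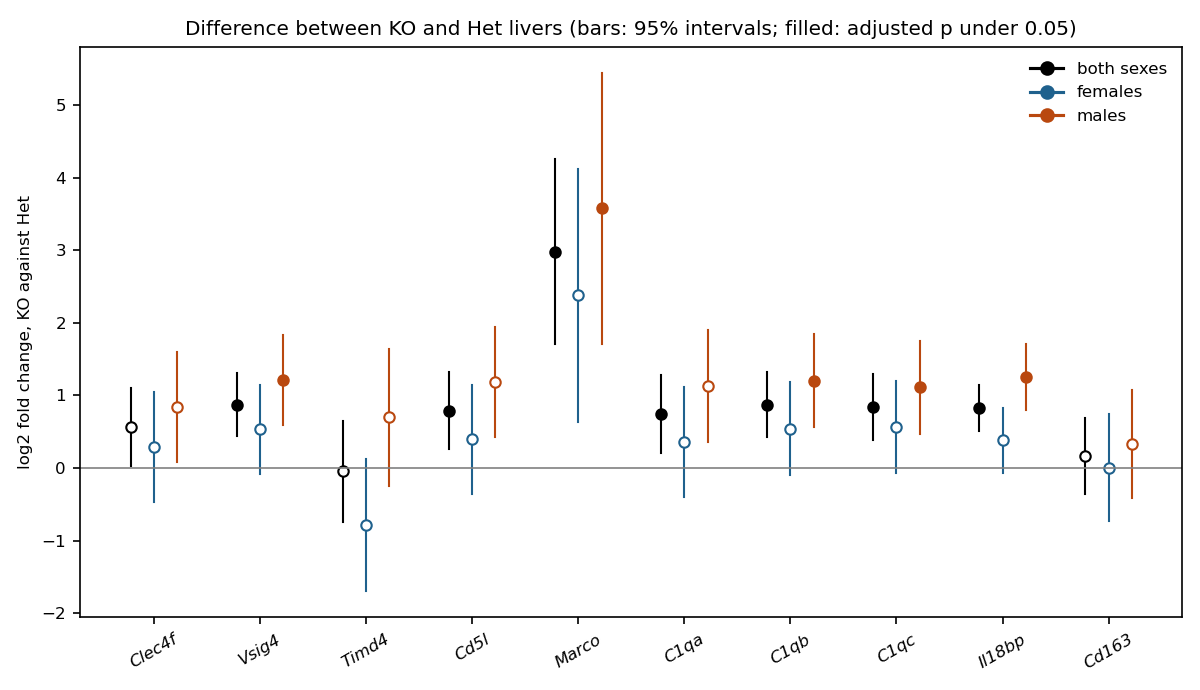
Log2 fold change between KO and Het livers for each member, over both sexes and within each, with 95% intervals and filled points at an adjusted p under 0.05. The point of each member was higher in males than in females, and the intervals of the sexes overlapped for every member.

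C1q, the recognition molecule of the classical complement pathway, is built from A, B and C chains in equal numbers, and macrophages are its main source. The 3 chain genes were near one another in every liver. Together they reached 56.9 to 86.3 TPM in Het females, 84.6 to 116 TPM in KO females, 27.3 to 35.7 TPM in Het males and 45.2 to 118.6 TPM in KO males. *C1qa* made up 32.8% to 39.3% of this sum over the 12 livers, *C1qb* 31.0% to 34.8% and *C1qc* 29.0% to 33.0%. By genotype, *C1qa* took 37.0% ± 1.75 of the sum in Het and 34.8% ± 1.64 in KO livers (SD, n = 6), *C1qb* 32.3% ± 0.87 and 33.9% ± 0.908, and *C1qc* 30.7% ± 1.62 and 31.3% ± 1.07. Nearly equal shares thus accompanied a sum that varied widely between livers.

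Tested singly, *C1qb* rose by 0.87 on the log2 scale (SE 0.207, adjusted p = 0.0124), *C1qc* by 0.84 (SE 0.205, adjusted p = 0.0146) and *C1qa* by 0.74 (SE 0.245, adjusted p = 0.0498). *C1qb* was at 23.1, 29.3 and 34.7 CPM in Het females, 36.4, 41.7 and 49.0 CPM in KO females, 16.2, 12.1 and 15.5 CPM in Het males and 29.1, 52.3 and 20.0 CPM in KO males. *C1qc* was at 23.3, 29.8 and 35.8 CPM in Het females, 39.2, 41.3 and 51.0 CPM in KO females, 16.7, 14.1 and 17.5 CPM in Het males and 28.9, 54.7 and 21.1 CPM in KO males. *C1qa*, at 18.3, 13.6 and 15.4 CPM in Het males and at 27.8, 56.9 and 18.7 CPM in KO males, came close to overlap between Het_M_119 and KO_M_136. Genotypes did not overlap within either sex for *C1qb* and *C1qc*, whereas *C1qa* of KO_F_108 (33.1 CPM) was below that of Het_F_115 and Het_F_126 (34.4 and 37.7 CPM). The *C1qa* call rests close to the threshold. Leaving out any 1 liver other than KO_M_136 raised its adjusted p above 0.05, to 0.0602 at the least and 0.110 at the most, and without KO_M_122 its log2 fold change was 0.46.

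**Figure D3:**
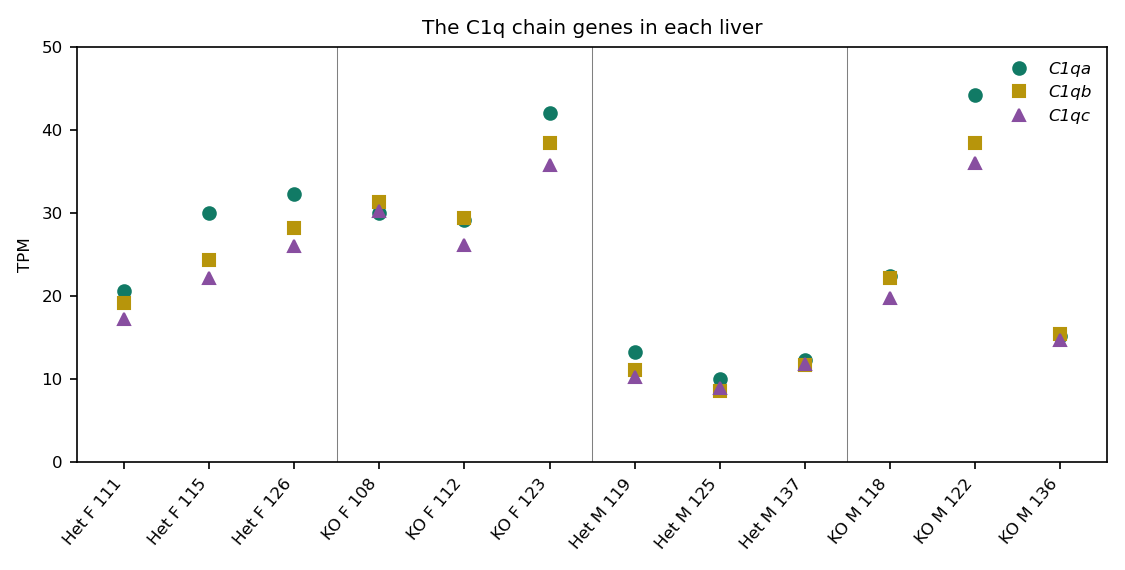
TPM of the 3 C1q chain genes in each of the 12 livers, ordered by sex and genotype. The chains rose and fell together, from 8.47 to 9.98 TPM in Het_M_125 to between 36.0 and 44.2 TPM in KO_M_122.

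Within females alone, 0 members were called higher, beside 5.94% of all genes, and 0 lower, beside 5.10%. In females 1 member, *Marco*, had an unadjusted p under 0.05, beside 29.0% of all genes (log2 fold change 2.38, SE 0.780, adjusted p = 0.0774). *Marco* was also the member called in females by DESeq2 (adjusted p = 0.0232) and by limma on log2(TPM + 1) (adjusted p = 0.0409), and limma on log2(TPM + 0.1) called 0. Even so, 5 members had every KO female above every Het female (*Vsig4*, *Marco*, *C1qb*, *C1qc* and, in CPM but not in TPM, *Il18bp*), an order found in 15.8% of all genes. The median log2 fold change of the members was 0.39 in females.

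In males, 5 members were called higher, beside 4.47% of all genes, and 0 lower, beside 2.98%. These were *Il18bp* (log2 fold change 1.26, SE 0.209, adjusted p = 0.00510), *Vsig4* (1.21, SE 0.285, adjusted p = 0.0265), *C1qb* (1.20, SE 0.295, adjusted p = 0.0315), *Marco* (3.58, SE 0.836, adjusted p = 0.0315) and *C1qc* (1.11, SE 0.293, adjusted p = 0.0414). At an unadjusted p under 0.05 there were 8 members, beside 24.1% of all genes, and 7 had every KO male above every Het male (all but *Clec4f*, *Timd4* and *Cd163*), beside 16.8% of all genes. In TPM *Timd4* joined them. The median log2 fold change was 1.15. Leaving out any 1 of Het_M_119, Het_M_125, Het_M_137, KO_M_118 and KO_M_122 left 1 call, that of *Il18bp*. Without Het_M_137 the log2 fold change of *Marco* in males was 4.27 (adjusted p = 0.0524).

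The calls in males and not in females do not show that the sexes differ. The difference between the effects was called for 0 of 10 members, beside 0.0465% of all genes, and 2 members had an unadjusted p under 0.05, beside 9.28% of all genes. Besides *Timd4* this was *Il18bp*, with a KO effect larger in males by 0.88 on the log2 scale (SE 0.290, unadjusted p = 0.0106, adjusted p = 0.434). DESeq2 and limma also called 0.

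Most members were lower in Het males than in Het females, though none passed the test over all genes. Among Het livers, 8 of 10 members (all but *Marco* and *Cd163*) had every female above every male, an order that 9.16% of all genes showed. Het females were also above Het males in the summed level of monocyte genes (17.3 to 19.5 against 5.94 to 8.36 TPM). The same held for sinusoidal endothelium genes (74.4 to 90.8 against 41.5 to 61.5 TPM) and stellate cell genes (141 to 153 against 72.2 to 100.4 TPM). Hepatocyte genes went the same way (29104 to 33410 against 20223 to 26143 TPM), as did genes of dendritic cells, B and plasma cells, neutrophils and macrophages in general. The sums of cholangiocyte, T and NK cell, erythroid and platelet genes overlapped between the sexes. The part of these cells in the members' order was not tested. The log2 difference of Het males from Het females was negative for all 10, with a median of -1.0 and a range from -0.50 (*Cd163*) to -2.53 (*Marco*). *Vsig4*, for example, differed by -1.14 (SE 0.284, unadjusted p = 0.00177, adjusted p = 0.106), *Timd4* by -1.47 (SE 0.431, unadjusted p = 0.00524, adjusted p = 0.180) and *Il18bp* by -0.73 (SE 0.207, unadjusted p = 0.00415, adjusted p = 0.167). By edgeR 9 members had an unadjusted p under 0.05, beside 11.0% of all genes, yet 0 were called lower, beside 0.460% of all genes, while DESeq2 called 2 and limma 0. Among KO livers the order was found for 1 member, *Marco*, beside 8.53% of all genes. There 0 members were called in either direction, beside 0.0517% of all genes, 0 had an unadjusted p under 0.05 (12.6% of all genes), and DESeq2 and limma called 0. Averaged over genotypes, 0 members were called between the sexes, beside 1.02% of all genes, with 8 below an unadjusted p of 0.05 (13.8% of all genes) and 2 called lower in males by DESeq2 and 0 by limma. Leaving out KO_M_122 brought 4 calls in that contrast. The contrasts within a genotype were added after the data had been seen.

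Genes that macrophages share were used as a scale for these differences, and whether other cells contribute to their level was not tested. A list of 16 pan-macrophage genes, with no member among them, was averaged per liver on the log2 CPM scale and centred on the mean of all livers. This level was 0.01 to 0.34 in Het females, 0.08 to 0.78 in KO females, -0.96 to -0.53 in Het males and -0.40 to 0.83 in KO males. KO_F_123 and KO_M_122 stood highest, as they did for *Clec4f* and *Cd5l*, and the Het males stood lowest, as they did for *Cd5l*. Of the 16 genes 6 were called higher and 0 lower in KO (median log2 fold change 0.57), beside 12.2% and 10.2% of all genes. Without Het_M_125, 3 were called higher. Log2 fold changes of the 16 ran from 0.05 to 1.22, with a median of 0.15 in females and 1.04 in males. The strongest were *Mpeg1* (perforin-2, log2 fold change 1.09, SE 0.150, adjusted p = 0.00067), *Fcgr3* (an activating Fc receptor, 1.22, SE 0.220, adjusted p = 0.00301) and *Ctss* (cathepsin S, 0.999, SE 0.207, adjusted p = 0.00674). *Lyz2*, the most abundant, ranged from 8.44 to 44.7 TPM in Het and from 15.4 to 51.4 TPM in KO livers and was not called (adjusted p = 0.184).

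The members were then tested again with each liver scaled to its pan-macrophage level, which was taken as known without error. This scaling moved the median log2 fold change of all genes to -0.47. Then 1 member, *Marco*, was called higher, beside 2.56% of all genes, and 0 were called lower, beside 23.7%. *Marco* remained 2.44 higher on the log2 scale (SE 0.516, adjusted p = 0.00723). The other 6 called members stood between 0.13 and 0.29, with adjusted p from 0.336 to 0.668, and their intervals all spanned no difference (for *Vsig4*, 0.870-fold to 1.69-fold). *Clec4f* stood at -0.06, *Cd163* at -0.39 (SE 0.258, adjusted p = 0.243) and *Timd4* at -0.63 (SE 0.287, unadjusted p = 0.0366, adjusted p = 0.0972). Without KO_F_112 *Timd4* was called lower on this scale (log2 fold change -0.95, adjusted p = 0.024). Relative to pan-macrophage genes *Marco* was thus the 1 member called with all livers in. *Timd4* and *Cd163* had the lowest values, but neither was called there, and members were not tested against one another. Scaled this way, the difference between Het males and Het females was between -0.27 and 0.36 for all members but *Timd4* (-0.58) and *Marco* (-1.55).

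**Figure D4:**
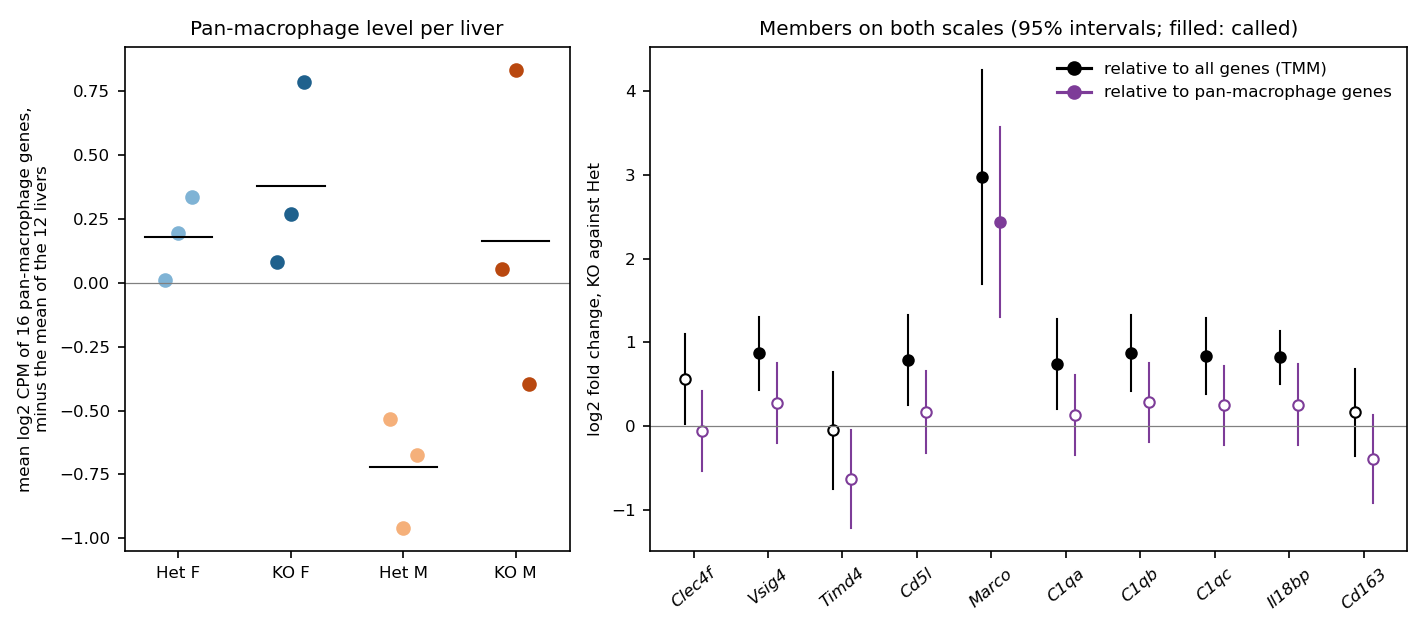
Left, the pan-macrophage level of each liver (mean log2 CPM of 16 genes, centred) with group means as bars. Right, log2 fold changes of the members with 95% intervals on the TMM scale and relative to pan-macrophage genes, filled where called. *Marco* was the 1 member called on both scales.

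Members differed in how far they varied together. After removal of group means, Pearson's r of log2 CPM over the 12 livers (a description, in which all genes share library and depth) was 0.976 to 0.989 between the C1q chains and 0.985 between *Clec4f* and *Cd5l*. Of all genes tested, *Cybb*, a subunit of the phagocyte NADPH oxidase, was nearest to both *Clec4f* (r = 0.995) and *Cd5l* (r = 0.987), with *Ly86* among the 3 nearest to each. *Cybb* and *Laptm5* belong to the 16 pan-macrophage genes. The nearest genes to *C1qa* were *C1qb*, *Rac2* (r = 0.978) and *C1qc*, to *C1qb* they were *C1qc*, *C1qa* and *Epb41l3* (r = 0.981), and to *C1qc* they were *C1qb*, *Cyba* (r = 0.982) and *Laptm5* (r = 0.977). *Il18bp* was nearest to *Phf11a* (r = 0.968), with *Laptm5* (r = 0.961) also among its nearest genes, and its best member was *Clec4f* (r = 0.936). *Vsig4* was nearest to *Selenon* (r = 0.971), *Wtip* (r = 0.965) and *Epb41l2* (r = 0.960).

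The other 3 members were less like the rest. *Marco* was nearest to *Nupr1* (r = 0.919), *Gm6978* (r = 0.914) and *Gm43052* (r = 0.907), and its best member was *C1qc* at r = 0.550. *Timd4* was nearest to *Tmod3* (r = 0.961), *Edf1* (r = 0.947) and *Acsl5* (r = 0.937), with *C1qa* its best member at r = 0.669. *Cd163* was nearest to *Gm57071* (r = 0.963), *Ttc28* (r = 0.936) and *Podxl* (r = 0.924), with *Vsig4* its best member at r = 0.728. For each of the other 7 members the best r with a member was 0.881 or more, so the uptake receptors *Marco*, *Timd4* and *Cd163* were least like the set.

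Of 16 further genes of resident Kupffer cells 1 was called higher and 1 lower, beside 12.2% and 10.2% of all genes, and their median log2 fold change was 0.09. Without KO_M_136, 2 were called higher. *Spic*, a transcription factor of iron-recycling macrophages, rose by 1.34 (SE 0.216, adjusted p = 0.00162), from 0.266 to 0.624 TPM in Het livers to 0.318 to 1.79 TPM in KO livers. *Hpgd*, which inactivates prostaglandins, fell by 0.80 on the log2 scale (SE 0.157, adjusted p = 0.00469). *Csf1r* (0.49, adjusted p = 0.143), *Adgre1* (F4/80, 0.43, adjusted p = 0.274), *Folr2* (0.23, adjusted p = 0.641), *Slc40a1* (ferroportin, 0.05, adjusted p = 0.846), *Fcna* (ficolin A, -0.17, adjusted p = 0.601) and *Clec1b* (0.28, adjusted p = 0.339) were not called. Of this list *Slc40a1*, *Hpgd* and *Cdh5* are known in other liver cells as well.

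Of 15 regulators of Kupffer cell identity, 2 were called higher and 3 lower, beside 12.2% and 10.2% of all genes. Beside *Spic*, *Spi1* (PU.1) rose by 0.88 (SE 0.257, adjusted p = 0.0296). *Nr1h3* (LXRα) fell by 0.49 (SE 0.0817, adjusted p = 0.00199), *Maf* fell by 0.39 (SE 0.0891, adjusted p = 0.00984) and *Zeb2* fell by 0.52 (SE 0.157, adjusted p = 0.0331). *Nr1h3* is also strongly expressed in hepatocytes. *Id3* (-0.16, adjusted p = 0.770) was not called. Of 10 LXR target genes 2 were called higher and 4 lower, beside the same shares of all genes. The called genes of smallest p were *Nr1h3*, *Arg2* (log2 fold change 1.83, adjusted p = 0.00225) and *Srebf1* (-1.17, adjusted p = 0.00612). The most abundant, *Apoe*, was not called (0.04, adjusted p = 0.854).

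Of 15 tested signals that sustain Kupffer cells 0 were called higher and 1 lower, beside 12.2% and 10.2% of all genes. *Csf1*, the growth factor of macrophages, fell by 0.73 on the log2 scale (SE 0.226, adjusted p = 0.0364) and was the 1 called. This average joined -1.53 in females (adjusted p = 0.0158) and 0.06 in males (adjusted p = 0.934), and the difference between them was not called (adjusted p = 0.374). *Il34*, the other ligand of its receptor, was at -0.41 (adjusted p = 0.299), *Bmp10* at -0.22 (adjusted p = 0.551), *Gdf2* (BMP9) at -0.19 (adjusted p = 0.50), *Dll4* at -0.65 (adjusted p = 0.0880) and *Cxcl12* at -0.76 (adjusted p = 0.0517). Opposite in sign were *Vcam1* (0.63, adjusted p = 0.119), *Tgfb2* (0.31, adjusted p = 0.405) and *Ccl2* (0.19, adjusted p = 0.784), none of them called. The list had a median of -0.22.

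Partners of the members were compared next. Among 11 tested genes that act with C1q, 1 was called higher and 1 lower, beside 12.2% and 10.2% of all genes. *C3* rose by 0.74 (SE 0.143, adjusted p = 0.00452), from a mean of 1404 ± 362 TPM in Het to 2347 ± 246 TPM in KO livers (SD, n = 6). *C1s1*, the protease of the C1 complex, fell by 0.65 on the log2 scale (SE 0.180, adjusted p = 0.0241). *C1ra* (-0.38, adjusted p = 0.0789), *C4b* (0.17, adjusted p = 0.342) and the inhibitor *Serping1* (-0.20, adjusted p = 0.340) were not called. Of 11 tested genes of the IL-18 system 2 were called higher and 0 lower, beside the same shares of all genes. They were the sensors *Nlrp3* (0.98, SE 0.207, adjusted p = 0.00684) and *Aim2* (1.03, SE 0.227, adjusted p = 0.00812). *Il18* itself was at 4.6 to 8.6 TPM in Het and 3.8 to 6.38 TPM in KO livers and was not called (-0.33, adjusted p = 0.126), and *Il18r1* (0.33, adjusted p = 0.444) and *Casp1* (0.12, adjusted p = 0.781) were not called either. The decoy *Il18bp* and its cytokine thus had opposite signs, of which that of the decoy passed the test.

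In all, 5 of 11 genes of hemoglobin and heme clearance were called higher and 0 lower, beside 12.2% and 10.2% of all genes. The hemoglobin receptor *Cd163* was not called, and which cells made these transcripts was not tested. *Hp* (haptoglobin) rose by 0.88 (adjusted p = 0.00253), *Hpx* (hemopexin) by 0.98 (adjusted p = 0.000352), *Hmox1* (heme oxygenase 1) by 1.46 (adjusted p = 0.0018), *Slc48a1* (a heme exporter of the lysosome) by 0.41 (adjusted p = 0.0164) and *Slc11a1* (NRAMP1) by 0.92 (adjusted p = 0.00524). Of 19 receptors and bridges for scavenging and dying cells, 7 were called higher and 2 lower (median 0.36), beside the same shares of all genes. Those of smallest p were *Clec4n* (dectin-2, 1.81, adjusted p = 0.00123), *Fcgr2b* (the inhibitory Fc receptor, -1.23, adjusted p = 0.00192) and *Pros1* (protein S, 1.25, adjusted p = 0.00395), and *Scarb1*, the most abundant over all livers though below *Cd36* in KO livers, rose by 0.29 (adjusted p = 0.0277).

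Markers of other macrophages were often called. Of 16 genes of monocytes and recruited macrophages 8 were called higher and 0 lower (median 0.76), beside 12.2% and 10.2% of all genes. Their summed level was 5.94 to 19.5 TPM in Het and 16.5 to 79.6 TPM in KO livers. KO_F_108 alone stood at 79.6 TPM, most of it from the 1 gene *Cd14*, and the next KO liver was at 30.6 TPM. *Chil3* was at 0 to 0.0999 TPM in Het and 0.677 to 1.98 TPM in KO livers (adjusted p = 9.8e-07). *Itgam* (CD11b) rose by 1.79 (adjusted p = 0.000114) and *Ly6c1* by 2.33 (adjusted p = 0.000956). *Cd14* held 59.5 TPM of the 79.6 TPM in KO_F_108 and was at 0.745 TPM in another KO liver (2.64, adjusted p = 0.018). *Ccr2* (-0.39, adjusted p = 0.420) and *Ly6c2* (0.42, adjusted p = 0.425), defining genes of blood monocytes named here after their values were seen, were not called. The count was 5 where every liver had to hold 10 reads or more and 4 by limma on log2(TPM + 1).

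Of 13 genes of lipid-associated macrophages 9 were called higher and 0 lower (median 1.11), beside 12.2% and 10.2% of all genes. With the stricter filter 5 were called higher. *Gpnmb* went from 0.0174 to 0.138 TPM in Het to 0.274 to 1.63 TPM in KO livers (adjusted p = 3.2e-05), *Mmp12* rose by 2.69 (adjusted p = 0.00024), and *Lpl*, which other liver cells can also express, rose by 4.16 (adjusted p = 2.1e-07). *Lipa*, the most abundant of them over all livers though below *Lpl* in KO livers, was not called (-0.37, adjusted p = 0.115). The part of recruited or lipid-associated macrophages in the levels of the members was not tested.

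Other cell types were followed by their markers. Among 8 genes of sinusoidal endothelium 5 were called lower and 0 higher (median -0.84), beside 10.2% and 12.2% of all genes. Their summed level was 41.5 to 90.8 TPM in Het and 30.6 to 54.7 TPM in KO livers. *Fcgr2b*, *Kdr* (VEGF receptor 2, -0.99, adjusted p = 0.0033) and *Clec4g* (-0.83, adjusted p = 0.0049) had the smallest p. Among 8 genes of hepatic stellate cells 4 were called lower and 0 higher (median -0.79), beside the same shares of all genes. They were led by *Reln* (-1.75, adjusted p = 0.000188), *Lrat* (-1.89, adjusted p = 0.000238) and *Ecm1* (-1.14, adjusted p = 0.000642). The most abundant, *Dcn*, was not called (-0.44, adjusted p = 0.0608). The stellate cell genes summed to 72.2 to 153 TPM in Het and 47.1 to 87.4 TPM in KO livers. Both cell types make signals for Kupffer cells.

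Of 11 listed markers of neutrophils and their precursors, 5 passed the filter on low counts and 2 were called higher. These were *Prtn3*, at 0 to 0.155 TPM in Het and 2.75 to 12.5 TPM in KO livers, and *S100a8* (1.17, adjusted p = 0.0299). A gene near 0 in Het livers, such as *Prtn3*, could pass that filter through KO livers alone. *Ly6g*, the defining marker, was at 0 to 0.0265 TPM in all livers. Dendritic cell markers included 2 called lower of 7, erythroid markers 1 lower of 7, platelet markers 1 higher of 4 and hepatocyte markers 1 lower of 8. Of all genes 12.2% were called higher and 10.2% lower. None of 6 cholangiocyte, 6 B and plasma cell and 8 T and NK cell markers was called by edgeR or had an unadjusted p under 0.05. The part of these cells in the members' levels was not tested.

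**Figure D5:**
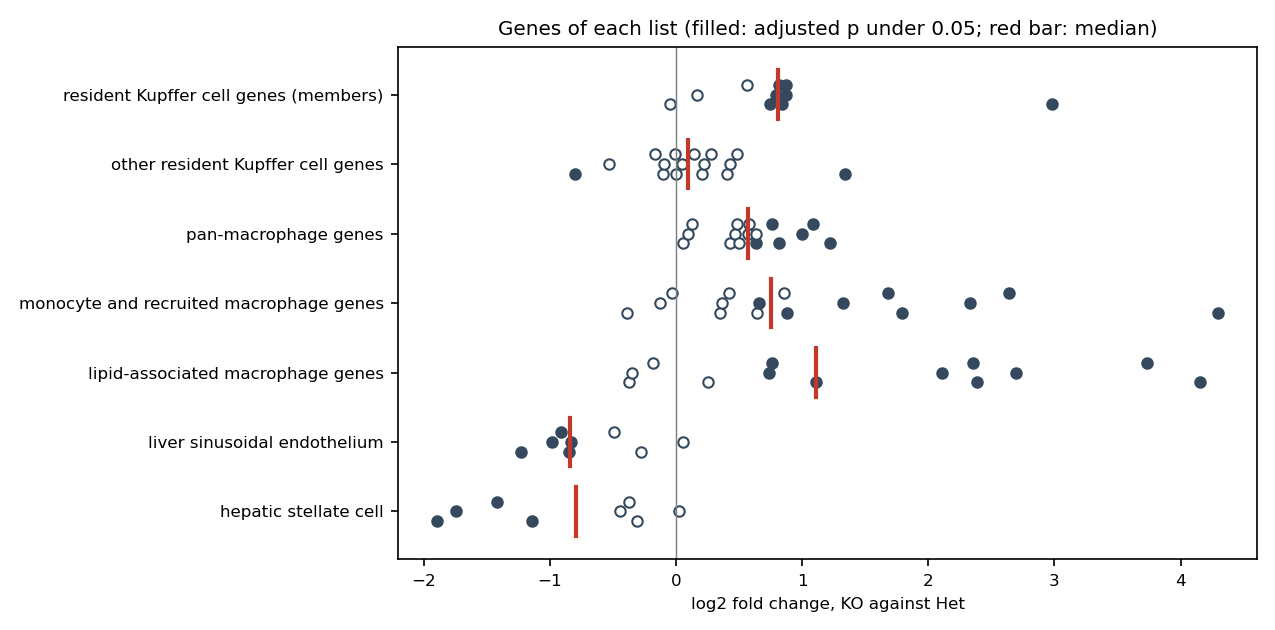
Log2 fold change between KO and Het livers of each gene in 7 lists, filled at an adjusted p under 0.05, with the median of each list as a red bar. The median was 0.81 for the members, 0.09 for other resident Kupffer cell genes, 0.57 for pan-macrophage genes, 1.11 for lipid-associated macrophage genes and -0.79 for stellate cell genes.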

How the data were processed

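Total RNA of 12 mouse livers was depleted of ribosomal RNA and made into stranded libraries (TruSeq). Per the labels, the authors used STAR 2.7.9a, Salmon 1.10.1 and the GRCm39 build, within the nf-core RNA-seq pipeline. The deposited estimated counts per gene, of which 12.0% were not whole, were rounded. The deposited TPM values served for levels between genes, and estimated counts that the authors rebuilt from TPM served as alternatives. Samples were grouped by the labels.

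A gene was kept where 3 or more livers held 5 or more reads once libraries had been brought to a common size. Counts were scaled by TMM (factors 0.885 to 1.06) and tested by the quasi-likelihood method of edgeR 4.0.16 (R 4.3.3) with robust estimation, a prior count of 2 and a mean for each group. Intervals use the quantile of the t distribution with the fit's degrees of freedom. P-values measure the spread between the mice of a group. The edgeR test of genotype averaged over the sexes, and the same contrast by limma, were checked on simulated data with an equal spread for every gene. The other tests were not checked in this way. The members, lists and rule for named genes were chosen with earlier results of these data known. The rule covers the members, *Xpa* and *Ercc8*, any gene of the lists on Kupffer cells, their regulators and niche, complement, IL-18 and heme, and for each other list the 3 genes of smallest p and the most abundant. Per member the 3 genes of highest r were named, save where a gene is not reported here. Livers of 1 group differed by 86.8 to 226 times the sampling noise (chi-square per degree of freedom), so none was counted as a duplicate. Alternatives used DESeq2 1.42.0 and limma 3.58.1. The 10 members have 1 row each, and 0 sample columns outside the 12 livers were found.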

Additional observations from a re-analysis of the deposited data

How the results depend on the processing

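The 7 members called higher in KO livers numbered 5 to 8 under all alternatives. In females DESeq2 and limma on log2(TPM + 1) each called 1 member in place of 0. In males the 5 calls became 3 with no filter on low counts, 2 when only the livers of that sex were fitted, 1 to 7 when a liver was left out (1 without Het_M_119, Het_M_125, Het_M_137, KO_M_118 or KO_M_122), and 1 without both KO_F_123 and KO_M_122, an alternative chosen after seeing the data. Between males and females DESeq2 called 2 members, leaving out 1 liver gave 0 to 4, with 4 without KO_M_122, and leaving out both gave 4. Among Het livers alone DESeq2 called 2, leaving out 1 liver gave 0 to 1 (1 without KO_M_122 or KO_M_136), and leaving out both gave 2. Relative to pan-macrophage genes, leaving out 1 liver gave 1 to 2 calls. The mean share of *C1qa* among the C1q chains was 35.9% in TPM and 33.5% in CPM, which is not corrected for length. No log2 fold change of a called member reversed its sign. The cause of the lost and gained calls was not tested. With 3 livers in a group, differences under about the intervals given are not resolved, and *Timd4* rests on 49 to 301 reads per liver. No paired analysis was possible because the labels number each mouse once, with no number shared between groups, and give no litter. Any likeness between KO and Het littermates was therefore not modelled.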
